A study of Apis mellifera with 12 samples.

Results

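One stretch of linkage group LG2 gave 67 of the 20244 circular RNAs (circRNAs) listed in ovaries of queens of the honey bee, Apis mellifera. The 67 are all circRNAs on the plus strand of LG2 with a start at 4622669 or later and an end at 4807227 or earlier (genome build Amel_4.5). The window was selected on its read counts, which are the highest of any locus, with its levels in all groups known, above all its low level in virgin against laying ovaries. Its size and its difference from virgin ovaries are therefore given as description and were not tested. A locus is here a run of circRNAs whose spans overlap on one strand, and it need not be 1 gene. The table that lists the circRNAs pairs none of them with a gene, so no gene name is given and the labelled tissue could not be checked against marker genes.

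The groups were 3 libraries each from virgin queens, from normally laying queens, from queens whose laying was inhibited by 7 days in a cage, and from queens released after 7 days in the cage, which had resumed laying when they were sampled on day 8. They are called virgin, laying, caged and released below, and values are given in the order of replicates 1, 2 and 3. The labels give neither strain nor age in days, and do not say whether the replicates of a group were separate queens, so p-values measure the spread between these samples, which may be technical. RNA was measured in bulk, so fewer cells of a type and less RNA per cell cannot be told apart. Libraries held between 66487 and 206697 circRNA reads, and abundance is in CPM, the reads of a circRNA per 1000000 circRNA reads of the library.

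A circRNA forms by back-splicing, in which the donor splice site at the end of an exon joins the acceptor site at the start of the same exon or of an exon upstream, and the RNA between them closes into a loop. On the plus strand the start of a circRNA is therefore the acceptor used and its end is the donor used, and 1 acceptor can be joined to several donors. Loops lack free ends, which lets them survive the exonuclease RNase R, used in these libraries to remove linear RNA. In the honey bee, queens mate and then start to lay, and their ovaries pass from a resting to an egg-producing state.

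The 67 circRNAs used 36 starts and 33 ends over 184558 nt. Of the starts, 26 were used by 1 circRNA and 10 by more, and of the ends, 23 were used by 1 circRNA and 10 by more. The 67 held 113190 reads, which were 6.59% of all circRNA reads of the 12 libraries, ahead of 4.20% at the locus with the next most reads among 7974 loci. By number of circRNAs the locus ranked 5, with 172 at the richest locus. The nearest circRNAs outside on the same strand, 31609 nt before and 9259 nt after, held 5 and 2 reads.

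Reads were concentrated on few junctions. The 5 most abundant circRNAs held 84.9% of the reads of the locus and the 10 most abundant held 92.8%. ame_circ_0011734 (4758065 to 4774296) alone held 45703 reads. It was followed by ame_circ_0011722 (end 4701723) with 16440, ame_circ_0011720 (end 4699421) with 16029, ame_circ_0011735 (4758065 to 4779975) with 10629 and ame_circ_0011726 (end 4758226) with 7342. These 5 use only 2 starts. One is 4758065, and the other, which lies 180 nt before the end 4699421 and is joined to 10 ends, is called the shared start below. At the other extreme, 25 of the 67 were listed in 1 library each and held 64 reads together. There were 13 listed in all 12 libraries, with 95.6% of the reads.

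Spans between start and end ran from 159 to 98397 nt with a median of 3864 nt. The 26 circRNAs that spanned over 10000 nt held 65.8% of the reads, and the 33 that spanned up to 2500 nt held 32.7%. A long span does not give the length of the loop, since exons inside it may be joined and introns removed, and the table does not list the exons. The start 4758065 divides the map. In 49 circRNAs both sites lay at or after it, in 13 both lay before it, and 5 joined a start before it to an end after it.

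**Figure D1:**
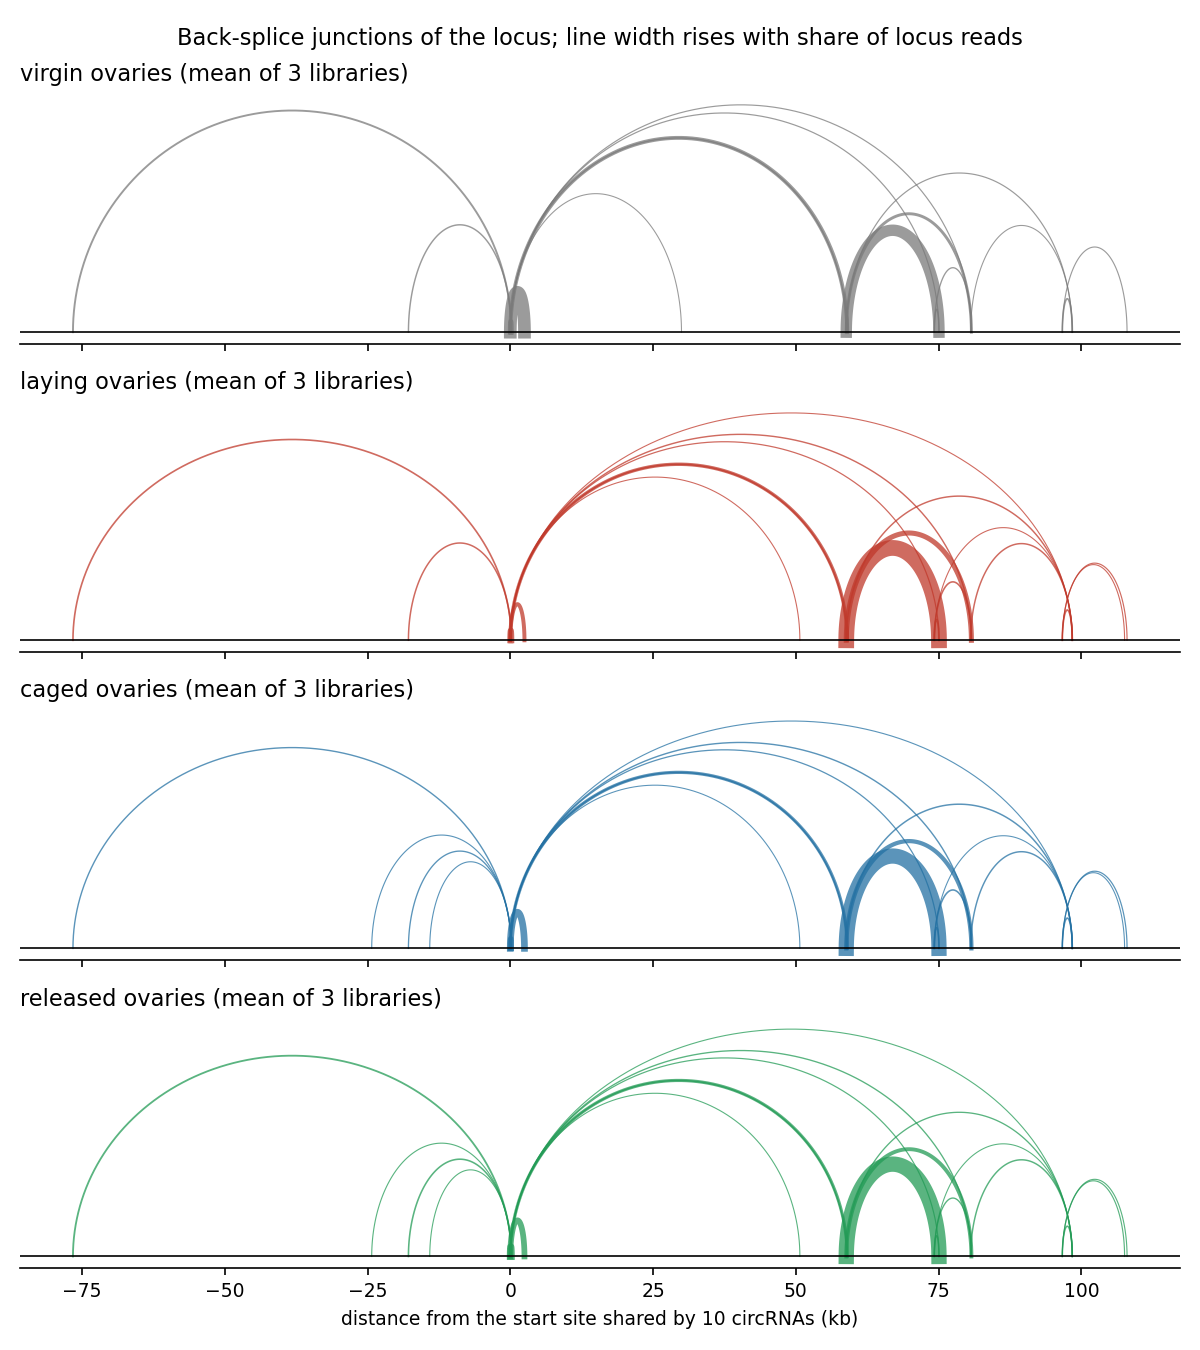
Back-splice junctions of the locus in each group, drawn as arcs from start to end against the distance in kb from the shared start. Line width rises with the mean share of the reads of the locus over 3 libraries, and circRNAs with a mean share of at least 0.1% are drawn; the arcs from 2 starts, the shared start and 4758065, carry most of the reads in all 4 groups.

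The whole locus was far lower in virgin ovaries than in the other groups. It stood at 11677, 20711 and 12651 CPM in the virgin libraries and at 70950.4, 88045 and 108298 in laying. In caged ovaries it stood at 78284, 78934 and 72664 CPM and in released at 80999, 83143 and 79685. The ratio of the group means to the virgin mean was 5.93 for laying, 5.10 for caged and 5.41 for released ovaries. No virgin library reached the lowest library of the other groups. Laying libraries overlapped caged and released ones, and every released library was above every caged one on this scale.

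The members did not share 1 ratio to virgin ovaries. Over the 13 circRNAs listed in all 12 libraries, the ratio of the laying to the virgin mean ran from 1.63 for ame_circ_0011722 to 14.1 for ame_circ_0011737 (4758065 to 4797638), which is named here after its value was seen. The virgin libraries held only 7, 11 and 4 reads of ame_circ_0011737. Of the others with the shared start or the end 4699421, ame_circ_0011709 (4622669 to 4699421) was at 3.61, ame_circ_0011726 at 4.54, ame_circ_0011725 (end 4758172) at 6.53, ame_circ_0011716 (4681408 to 4699421) at 6.73 and ame_circ_0011720 at 7.25. Of those that start at 4758065, ame_circ_0011734 was at 7.94 and ame_circ_0011735 at 12.7. Of the 13, 12 were higher in every laying than in every virgin library, where 20.1% of the 1450 circRNAs listed in all 12 libraries were. In caged ovaries 12 of the 13 were (21.4% of the 1450), and in released all 13 were (20.3%). None of the 13 was lower in every library of a later group, while 26.2%, 26.9% and 23% of the 1450 were lower in laying, caged and released ovaries. These counts restate the choice of the locus and nothing is read from them.

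The member with the lowest ratio was ame_circ_0011722, the pair of the shared start and the end 4701723. Its level was 5988, 3128 and 4340.3 CPM in virgin libraries and 5922, 9469.8 and 6565 in laying, and the lowest laying library lay below the highest virgin library. It was at 19584, 8751 and 9272 CPM in caged and 6513, 12766 and 13772 in released libraries, and caged replicate 1 was the highest of all 12. The most abundant member, ame_circ_0011734, stood at 2060.4, 8618 and 3837 CPM in virgin, 27331, 34952 and 52926 in laying, 28351, 37023 and 28802 in caged and 35058, 30548 and 34559.8 in released libraries. Virgin replicate 2, the library with the fewest reads, was the highest virgin library for 8 of the 10 most abundant members, this one included.

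**Figure D2:**
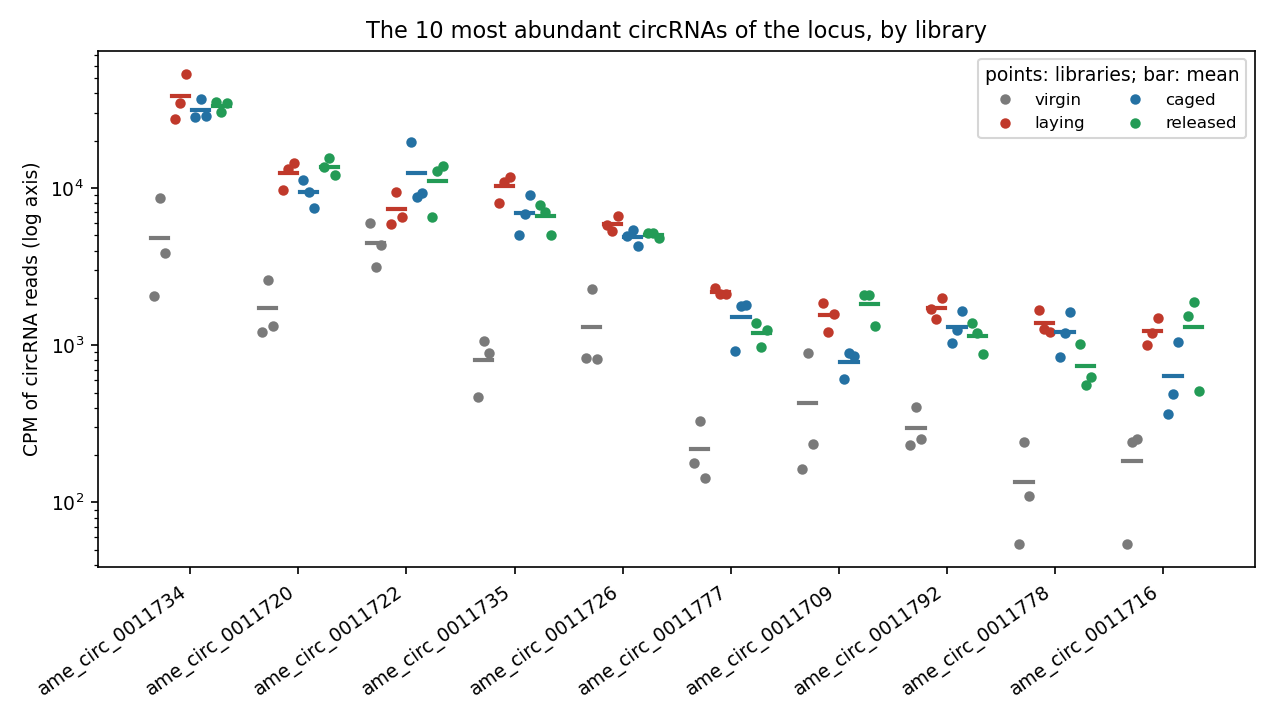
CPM of circRNA reads (log axis) of the 10 most abundant circRNAs of the locus, with 1 point for each library and a bar at the mean of 3 libraries, coloured by group. The virgin points lie below the points of the other groups for every circRNA shown except ame_circ_0011709 and ame_circ_0011722, where groups overlap.

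The shared start was the acceptor with the most partners, joined to 10 ends. It gave 8267, 8573 and 6733 CPM in virgin, 23958, 31071 and 31311 in laying, 37998, 26317 and 23599 in caged and 27567, 35869 and 32776 in released libraries. As a share of the reads of the locus it was 70.8, 41.4 and 53.2% in virgin and 33.8, 35.3 and 28.9% in laying libraries, groups that did not overlap. The share was 48.5, 33.3 and 32.5% in caged and 34.03, 43.1 and 41.1% in released libraries. Virgin ovaries had a mean of 55.1% ± 14.8 and laying ovaries 32.7% ± 3.33, while caged ovaries had 38.1% ± 9.03 and released ovaries 39.4% ± 4.79 (SD, n = 3).

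No difference in this share between caged, released and laying ovaries passed the test. Caged ovaries were 5.46 percentage points above laying ones (exact two-sided permutation test, p = 0.6), and the difference was 0.253 points without caged replicate 1. Released ovaries were 1.32 points above caged ones (exact two-sided permutation test, p = 0.8) and 6.78 points above laying ones (p = 0.2, the same exact test, added after the data had been seen). With 3 libraries against 3 the smallest p this test can give is 0.1. In level, the shared start was not called either (caged against laying, log2 fold change 0.04, SE 0.22, 95% interval -0.42 to 0.51; released against caged, log2 fold change 0.07, SE 0.22, 95% interval -0.39 to 0.54; edgeR, adjusted p = 0.989 and 0.996).

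The start 4758065, used by 8 circRNAs, took up most of the rest. Its share was 22.3, 47.9 and 38.3% in virgin, 51.4, 53.9 and 61.03% in laying, 43.8, 56.8 and 54.5% in caged and 54.1, 46.5 and 50.3% in released libraries. The lowest virgin value and the highest laying value were the extremes of all 12. Together the 2 starts held 89.5% of the reads of the locus, with group means between 88.1% and 91.3%, so a lower share of one went with a higher share of the other. Caged against laying, the share of 4758065 differed by -3.75 points, and released against caged by -1.40 points (exact two-sided permutation tests, p = 0.6 and 0.7; adjusted p = 0.875 for both over 15 such tests of single values).

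The remaining starts with at least 1% of the reads of the locus took small shares. The start 4795896 took 2.17, 2.18 and 2.52% in virgin, 2.89, 2.40 and 2.47% in laying, 1.99, 2.13 and 3.16% in caged and 2.23, 2.17 and 1.77% in released libraries, and its main product ame_circ_0011792 (end 4797638) stood at 233, 406 and 252 CPM in virgin, 1694, 1478 and 2009 in laying, 1030.5, 1244 and 1657 in caged and 1382, 1196 and 874 in released libraries. The start 4622669 took 1.40, 4.28 and 1.86% in virgin, 2.61, 1.37 and 1.46% in laying, 0.779, 1.13 and 1.18% in caged and 2.59, 2.495 and 1.67% in released libraries. Its caged shares were all below its laying and its released shares, an ordering not counted over all starts. The 6 starts of this size, with 4681408 and 4773481, held 98.1% of the reads.

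**Figure D3:**
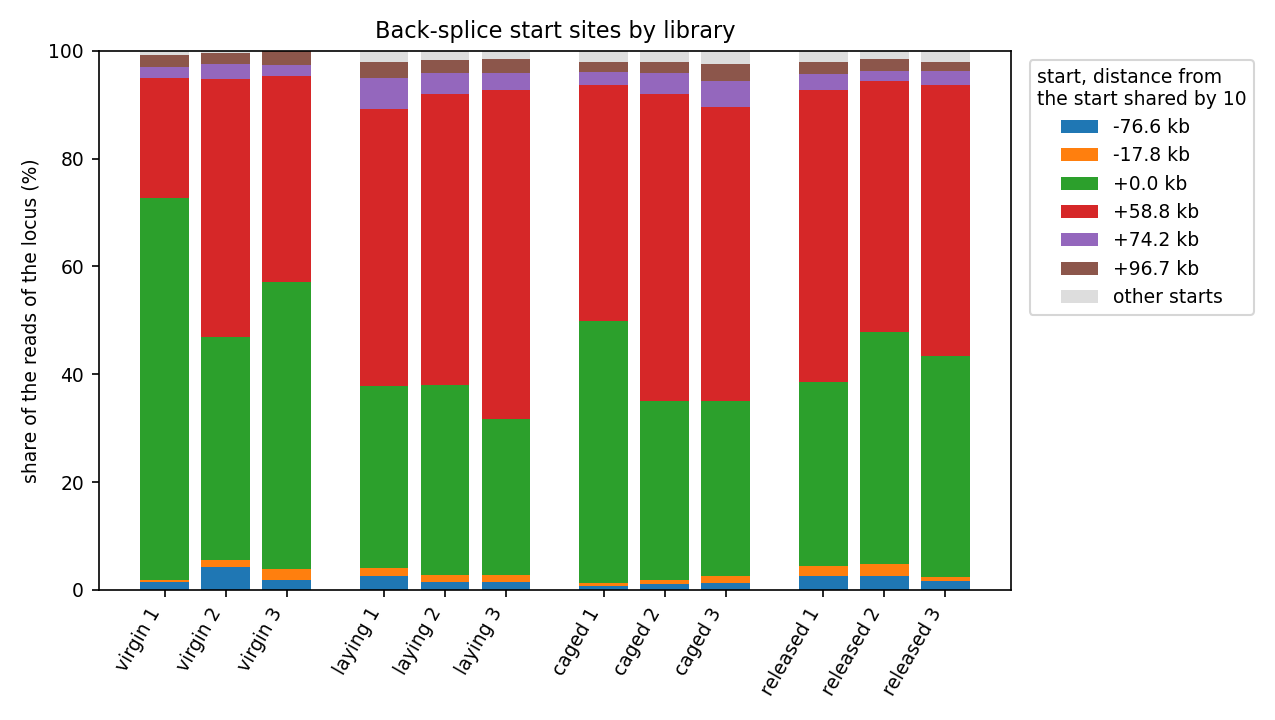
Share of the reads of the locus (%) by start site in each of the 12 libraries, stacked, with starts named by their distance in kb from the shared start and the remaining starts in grey. Virgin replicate 1 has the highest share from the shared start, at 70.8%, and laying replicate 3 the lowest, at 28.9%.

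The end to which the shared start was joined also varied between libraries. Among reads with this start, the end 4701723 (ame_circ_0011722) took 72.4, 36.5 and 64.5% in virgin and 24.7, 30.5 and 20.97% in laying libraries. It took 51.5, 33.3 and 39.3% in caged and 23.6, 35.6 and 42.02% in released libraries. Every caged library was above every laying library, a difference of 15.97 points between means of 41.4% and 25.4% (exact two-sided permutation test, p = 0.1, the smallest possible; adjusted p = 0.5 over the 15 tests). Released ovaries differed from caged ones by -7.62 points (exact p = 0.5, adjusted p = 0.833) and overlapped both groups.

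The nearest end, 4699421 (ame_circ_0011720), took 14.7, 30.4 and 19.7% of the reads of this start in virgin and 40.5, 42.2 and 46.3% in laying libraries. In caged libraries it took 29.7, 36.02 and 31.8% and in released 49.1, 43.1 and 36.9%. The circRNA spanning 180 nt was thus more abundant than the one spanning 2482 nt in all 3 laying libraries, with ratios of 1.64, 1.39 and 2.21. It was less abundant in all 3 virgin libraries, with ratios of 0.203, 0.832 and 0.306. The ratio was 0.576, 1.08 and 0.810 in caged libraries and 2.08, 1.21 and 0.878 in released ones, so each of these groups held libraries on both sides of 1.

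ame_circ_0011720 itself stood at 1216, 2602 and 1326 CPM in virgin, 9692, 13121 and 14488 in laying, 11282, 9479 and 7507 in caged and 13525, 15475 and 12087 in released libraries. Every released library was above every caged library, but the fitted difference did not pass the test (log2 fold change 0.47, SE 0.26, 95% interval -0.06 to 1.00; edgeR, adjusted p = 0.843). For ame_circ_0011722, caged against laying was also not called (log2 fold change 0.82, SE 0.36, 95% interval 0.07 to 1.57; edgeR, adjusted p = 0.514), and of the alternatives run only the fit that kept circRNAs with low counts called it (adjusted p = 0.0472).

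**Figure D4:**
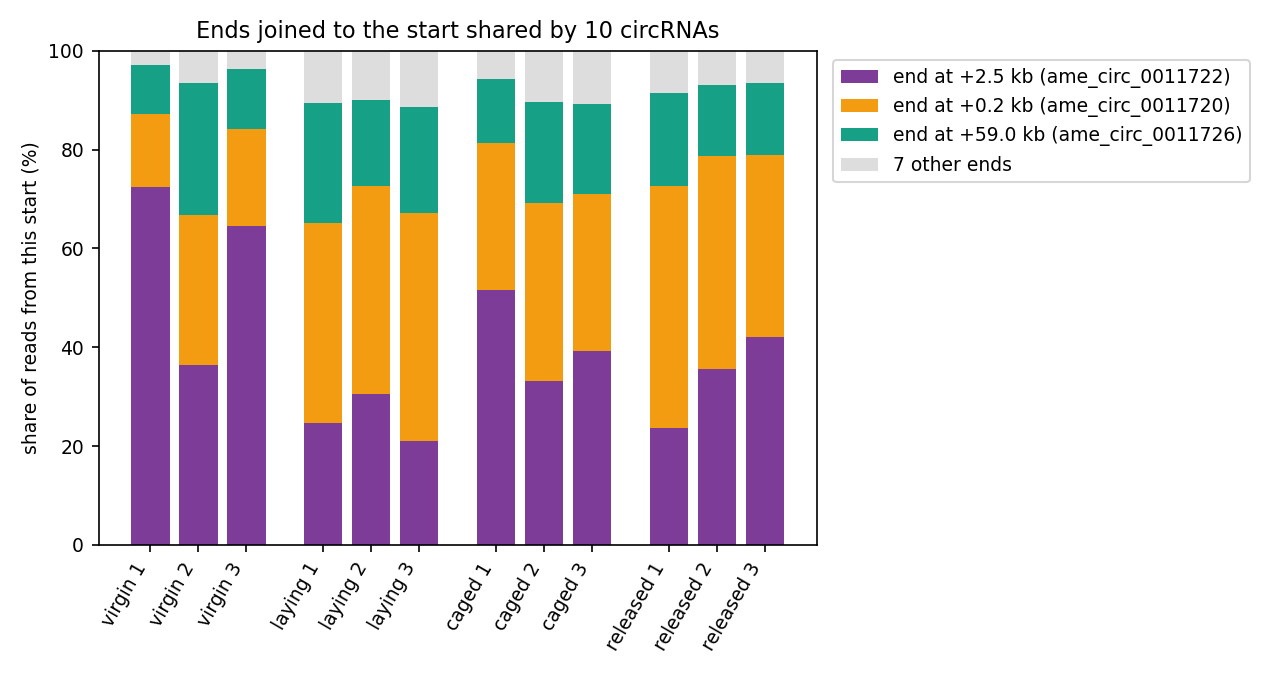
Share of the reads with the shared start (%) by the end it was joined to, in each of the 12 libraries, stacked, with the 7 less used ends in grey. The end 4701723 takes between 21.0% and 30.5% in laying libraries and between 33.3% and 51.5% in caged libraries.

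The other ends joined to the shared start lie farther away. The end 4758226 (ame_circ_0011726) took 9.97, 26.7 and 12.1% of the reads of the start in virgin, 24.3, 17.2 and 21.3% in laying, 13.1, 20.4 and 18.03% in caged and 18.8, 14.4 and 14.6% in released libraries, with overlap between all groups. Its neighbour 54 nt upstream, 4758172, joined only to this start (ame_circ_0011725, 109, 391 and 92.3 CPM in virgin, 1004, 1351 and 1515 in laying, 818, 957 and 800.1 in caged and 939.9, 824 and 919 in released libraries). The ends 4779975, 4774296 and 4797638, which belong mostly to starts downstream, were reached from the shared start by ame_circ_0011728 with 1120 reads, ame_circ_0011727 with 655 and ame_circ_0011729 with 219. ame_circ_0011724 (end 4749943) held 151 reads and ame_circ_0011723 (end 4729217) held 25. The member with this start that was not tested, with the end 4701551, held 20 reads, 172 nt from an end with 16440.

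From the start 4758065, most reads went to 1 end in every group. The end 4774296 took a mean of 81.7% of its reads in virgin and 76.2% in laying ovaries, against 79.3% after caging and 81.8% after release. The end 4779975 took 15.7%, 20.9%, 17.6% and 16.3% in the same order. The circRNA that joins 4758065 to 4779975, ame_circ_0011735, stood at 467, 1068 and 889.9 CPM in virgin, 8021, 10913 and 11761 in laying, 5017, 6873 and 8977 in caged and 7829, 7085 and 5026 in released libraries. All released libraries lay below all laying libraries, and the test did not call the difference (log2 fold change -0.65, SE 0.27, 95% interval -1.21 to -0.09; edgeR, adjusted p = 0.627).

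The same 2 ends were also joined to the start 4773481, which 5 circRNAs used. This start took 2.00, 2.76 and 1.99% of the reads of the locus in virgin, 5.86, 4.02 and 3.17% in laying, 2.39, 3.91 and 4.85% in caged and 3.12, 1.92 and 2.45% in released libraries. Its short pair with 4774296, ame_circ_0011777, stood at 179, 331 and 143 CPM in virgin and 2316, 2104 and 2132 in laying libraries. It stood at 919, 1778 and 1810.1 CPM in caged and 1391, 970.3 and 1252 in released libraries, all of them below every laying library. Its pair with 4779975, ame_circ_0011778, stood at 54.6, 241 and 109 CPM in virgin, 1687, 1265 and 1212 in laying, 842, 1203 and 1617 in caged and 1024, 561 and 630.5 in released libraries.

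Some starts joined to the end 4797638 had shares in virgin ovaries that lay apart from those in the other groups. Among reads with the end 4797638, the start 4795896 (ame_circ_0011792) took 73.4, 67.5 and 88.2% in virgin libraries. It took 41.02, 35.5 and 43.9% in laying, 36.2, 39.2 and 34.8% in caged and 39.4, 35.4 and 37.3% in released libraries, so the virgin libraries stood above all others. The start 4779846, which holds 0.989% of the reads of the locus and was named after its values were seen, took 10.9, 5 and 0% of the same end in virgin libraries and 28.7, 25.6 and 24.5% in laying, 26.7, 28.5 and 23.99% in caged and 28.95, 31.1 and 39.2% in released ones. The virgin shares rest on few reads, since the end 4797638 took between 2.26% and 2.90% of the reads of the locus there.

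Beyond 4797638 the start 4795896 formed 2 tested circRNAs. ame_circ_0011795 (end 4807227) stood at 19.9, 45.1 and 67.2 CPM in virgin, 255, 517 and 258 in laying, 421, 329 and 494 in caged and 254, 189 and 207 in released libraries. ame_circ_0011794 (end 4806795), named after its values were seen, was listed at 0 in the virgin libraries and stood at 67.5, 103 and 404 CPM in laying, 77.4, 106 and 136 in caged and 169, 403 and 279 in released libraries. All released libraries were below all caged ones for the first and above them for the second. For circRNAs listed at 0 in some libraries, as the second is, the share so ordered was not computed. Neither difference was called (for ame_circ_0011795, log2 fold change -1.01, SE 0.37, 95% interval -1.79 to -0.24; for ame_circ_0011794, log2 fold change 1.37, SE 0.56, 95% interval 0.19 to 2.55; edgeR, adjusted p = 0.734 and 0.734).

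At the other side of the map, 7 starts upstream of the shared start were joined to its nearest end, 4699421, and 3 of these pairs held 8 reads together. ame_circ_0011709, from the first start of the locus at 4622669, stood at 164, 887 and 235 CPM in virgin, 1852, 1207 and 1582 in laying, 609.6, 892 and 857 in caged and 2096, 2075 and 1333 in released libraries. All 3 caged libraries were below all laying and all released libraries. The fitted differences were not called (caged against laying, log2 fold change -0.93, SE 0.38, 95% interval -1.71 to -0.15; released against caged, log2 fold change 1.16, SE 0.38, 95% interval 0.37 to 1.94; edgeR, adjusted p = 0.429 and 0.721). ame_circ_0011716, from 4681408, stood at 54.6, 241 and 252 CPM in virgin, 997, 1190.2 and 1493 in laying, 363, 493 and 1055 in caged and 1532, 1886 and 513 in released libraries, and released replicate 3 lay among the caged values.

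The remaining tested upstream starts, 4674977 and 4685140, are rare. ame_circ_0011715 (4674977 to 4699421) had 6, 0 and 0 reads in virgin libraries and was listed at 0 in all 3 laying libraries. It had 49, 50 and 13 reads in caged and 40, 0 and 23 in released libraries. These were 237, 293 and 73.8 CPM in caged and 376, 0 and 207 in released libraries. The smallest count above 0 in the table is 2, so a listing at 0 may stand for a count below 2, and no fold is given against laying ovaries. ame_circ_0011718 (4685140 to 4699421) had 2, 0 and 0 reads in virgin, 3, 3 and 4 in laying, 55, 24 and 18 in caged and 0, 7 and 39 in released libraries. Every caged library was above every laying library for both, while released libraries ranged from 0 to the highest value of the 12 in CPM for both. The share of circRNAs so ordered was not computed for those listed at 0 in some libraries.

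Use, the share of a circRNA in the reads of the locus, was tested next. In caged against laying ovaries 1 of the 31 tested members, ame_circ_0011715, passed, where 0.125% of all 2401 circRNAs tested for use did (edgeR diffSpliceDGE, adjusted p = 0.000130). In released against laying ovaries it passed again, where 0.0833% did (adjusted p = 0.000483), but not without released replicate 1 (adjusted p = 0.0662). These comparisons share the laying libraries, in which it was listed at 0. It passed the low-count filter only through the caged and released libraries where it is high, so these calls give no support beyond its counts. Released against caged, 0 of 31 passed and 0% of the 2401 did, with 3 of the 31 at an unadjusted p under 0.05. The use test applies 1 estimate of spread to all circRNAs of a locus, and the test of level, which does not, gave ame_circ_0011715 an adjusted p of 0.115 in caged and 0.235 in released against laying ovaries (edgeR). That test did call it when circRNAs with low counts were kept (adjusted p = 5.18e-08 and 3.91e-07) and, in released against laying ovaries, without released replicate 2, which had 0 reads (adjusted p = 0.00465). ame_circ_0011718 was not called for level in caged against laying ovaries (log2 fold change 2.71, SE 0.96, 95% interval 0.70 to 4.71; edgeR, adjusted p = 0.327), and its use had an adjusted p of 0.447, or 0.0137 with only the 2 groups compared in the fit. Its laying reads were 3, 3 and 4, and it passed the filter largely through its caged and released libraries. These values therefore give no support beyond its counts.

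Summed by start site, use changed at 1 of 15 tested starts, 4674977, in caged against laying ovaries (edgeR diffSpliceDGE, adjusted p = 0.000216), where 0.183% of all starts tested for use did. That start has ame_circ_0011715 as its only circRNA, so both tests read the same counts, and the filter admitted it in the same way. The test of unequal change over the starts of the locus gave an adjusted p of 0.0128, where 0.568% of 528 loci passed. Over its circRNAs it gave 0.170, where 0.332% of 603 loci passed. The test over starts includes 4674977 and that over circRNAs includes ame_circ_0011715, so neither is support apart from the same counts. The value over starts was 0.197 to 0.381 without any one of the laying libraries or of caged replicates 1 and 2, and 0.00207 without caged replicate 3, without which the value over circRNAs was 0.0357. With only the 2 groups compared, the same test gave 3.94e-05 over starts and 0.000180 over circRNAs. Without the low-count filter it gave 1.67e-09 over starts and 0.0991 over circRNAs. The values thus depend on the fit, and all read the same counts. In released against laying ovaries the same start passed (0.122% of all starts did), with an adjusted p of 0.0367 over the starts of the locus (0.379% of loci) and 0.227 over its circRNAs (0.166% of loci). Here the value over starts was 0.171 to 0.492 without any one of the laying libraries or of released replicates 1 and 3, and 0.00136 without released replicate 2. It was 0.0597 with library totals and 0.0518 with DESeq2 size factors as the scaling, and 0.984 with only the 2 groups compared, where 4674977 was not tested. Released against caged, 0 of 15 starts passed (0% of all starts), with 2 at an unadjusted p under 0.05, and the adjusted p was 0.941 over the starts of the locus. By end site, 0 of 14 ends changed in use in any of the 3 comparisons, where 0.0608%, 0% and 0.0608% of all ends did; 1, 2 and 0 of the 14 were at an unadjusted p under 0.05.

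In level, no member was called in the comparisons of caged, released and laying ovaries. In caged against laying ovaries 0 of 31 tested members were called (edgeR, adjusted p under 0.05), as against 0.0933% of all 3215 tested. At an unadjusted p under 0.05 there were 3 higher and 1 lower, where 8.71% of all were in either direction. In released against caged ovaries 0 of 31 were called (0% of all), with 3 higher and 2 lower at an unadjusted p under 0.05, where 6.38% of all were. In released against laying ovaries 0 were called (0% of all), with 2 higher and 4 lower, where 7.22% were. DESeq2 also called 0 members in each of the 3. The 31 tested members held 99.8% of the reads of the locus, and the 36 that were not tested held 236 reads.

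The median log2 fold change of the 31 was -0.24 in caged against laying ovaries, beside 0.09 over all circRNAs tested, -0.25 beside -0.06 in released against caged, and -0.30 beside 0.04 in released against laying. The 95% interval lay within a 2-fold change in either direction for 8, 8 and 6 of the 31, and within a 4-fold change for 21, 21 and 20. For the other members the interval reached past these sizes, so changes of that size were not excluded. The total of the locus differed by -0.18 on the log2 scale between caged and laying ovaries (95% interval -0.61 to 0.26; edgeR, adjusted p = 0.850). It differed by 0.02 between released and caged (-0.42 to 0.45; adjusted p = 0.996) and by -0.16 between released and laying ovaries (-0.59 to 0.27; adjusted p = 0.930). Of the 1591 loci tested 0% were called in each comparison, and 10.8%, 7.29% and 8.86% had an unadjusted p under 0.05.

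**Figure D5:**
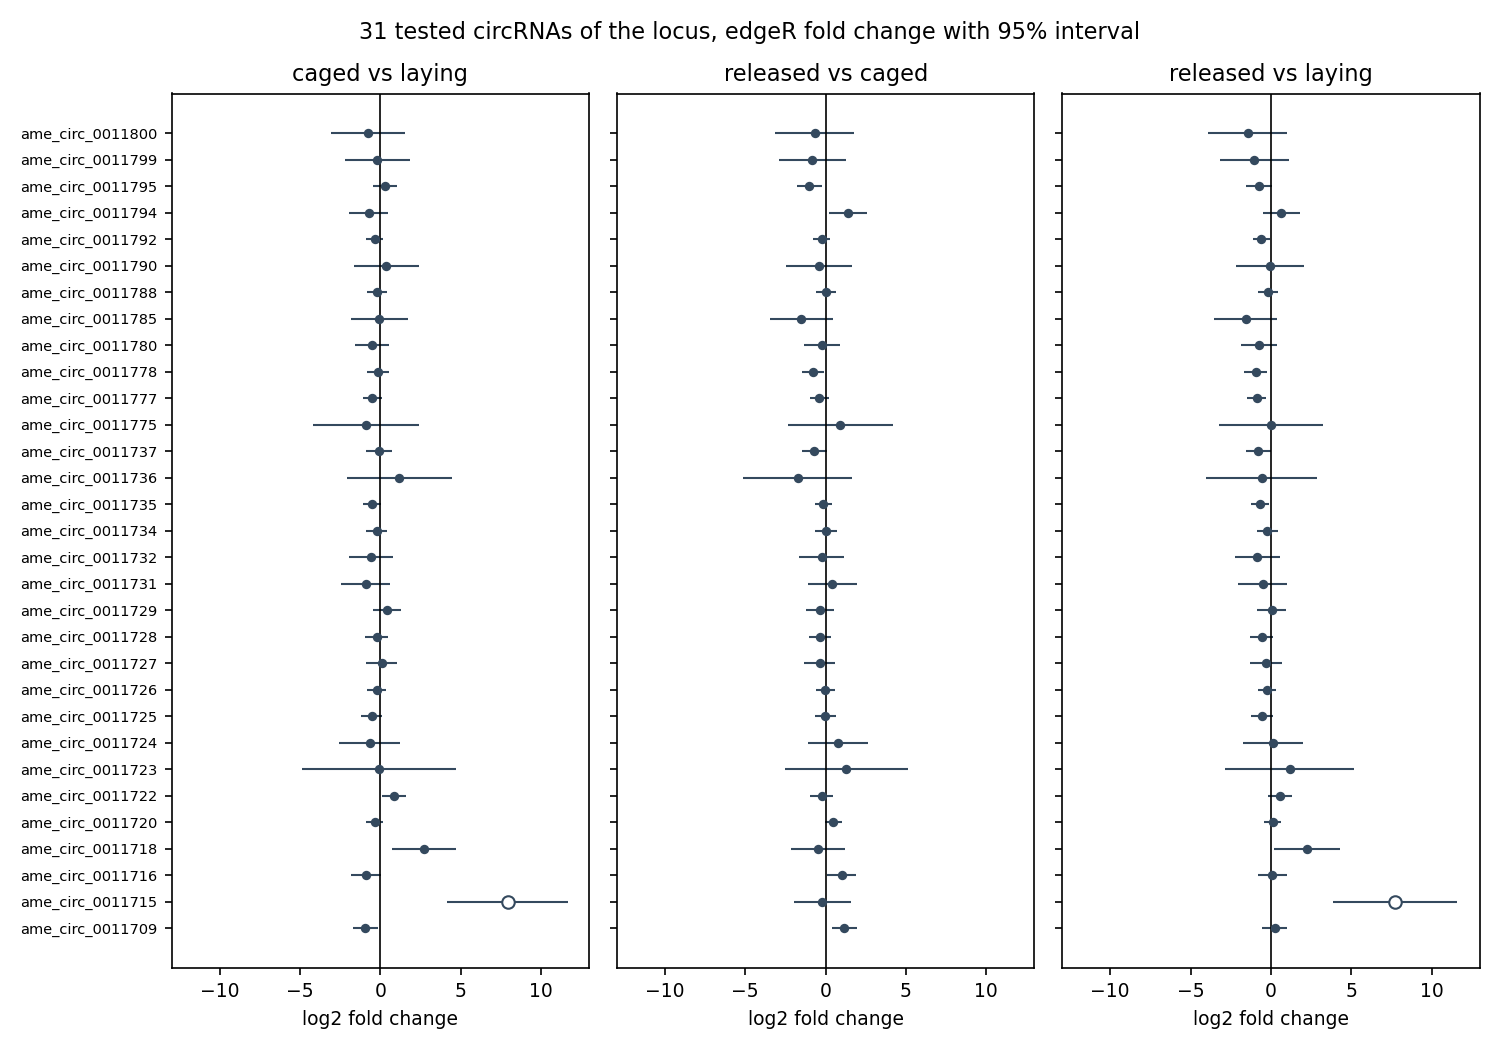
Fitted log2 fold change of the 31 tested circRNAs of the locus in the 3 comparisons of caged, released and laying ovaries, with 95% intervals from edgeR; open markers stand for a circRNA listed at 0 in all libraries of one group. Closed points lie on both sides of 0 in each comparison, and 8, 8 and 6 of the 31 intervals lie within a 2-fold change.

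Without a fit, the members listed in all 12 libraries can be ordered library by library. Of the 13, 3 were lower in every caged than in every laying library (ame_circ_0011709, ame_circ_0011725 and ame_circ_0011777), where 9.79% of the 1450 circRNAs listed in all libraries were, and 0 were higher (9.59%). Released against caged, ame_circ_0011709 and ame_circ_0011720 were higher in every library (7.52% of the 1450) and ame_circ_0011795 was lower (5.52%). Released against laying, 8 of the 13 were lower in every library (6.76% of the 1450) and 0 were higher (7.86%). The 8 were ame_circ_0011725, ame_circ_0011726, ame_circ_0011735, ame_circ_0011737, ame_circ_0011777, ame_circ_0011778, ame_circ_0011792 and ame_circ_0011795. They share starts and ends with one another and the same library totals, so they are not 8 independent observations. The locus was also picked with its high laying level known, which favours lower values in the other groups, so these counts are description only. In the fit, ame_circ_0011777 had the smallest p among them (log2 fold change -0.89, SE 0.28, 95% interval -1.48 to -0.31; edgeR, adjusted p = 0.479), followed by ame_circ_0011778 (log2 fold change -0.95, SE 0.33, 95% interval -1.64 to -0.27; adjusted p = 0.557).

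By end site, the donors that took at least 1% of the reads of the locus were 7 and held 98.9% of them. The end 4774296 took 19.3, 44.2 and 32.1% in virgin, 42.5, 42.8 and 51.3% in laying, 37.9, 49.9 and 42.9% in caged and 45.6, 38.5 and 45.5% in released libraries. The end 4779975 took 5.10, 6.32 and 8.49% in virgin, 14.96, 15.1 and 13.1% in laying, 8.49, 11.6 and 15.9% in caged and 11.8, 10.1 and 7.96% in released libraries, and the virgin shares were below all laying shares. The end 4699421, which 8 starts reached, took 12.6, 18.01 and 14.3% in virgin, 17.7, 17.6 and 16.3% in laying, 16.3, 14.3 and 13.2% in caged and 21.6, 23.5 and 18.2% in released libraries. Every released share was above every caged and every laying share for this end, an ordering not counted over all ends. Its level in released against caged ovaries was not called (log2 fold change 0.56, SE 0.26, 95% interval 0.02 to 1.10; edgeR, adjusted p = 0.717 at LG2:4699421:+), and 0 of 14 ends and 0 of 15 starts were called in each of the 3 comparisons by edgeR or DESeq2. At an unadjusted p under 0.05 in edgeR there were 1, 3 and 2 ends in caged against laying, released against caged and released against laying ovaries, where 9.72%, 6.55% and 7.83% of all ends were. There were 4, 2 and 4 starts, where 9.61%, 6.37% and 7.72% of all starts were. Among all ends 0.116%, 0% and 0.0387% were called in the same comparisons, and among all starts 0.0386%, 0% and 0%.

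Several weakly used sites lay a few nt from a strongly used one. The start 4773476 (52 reads) lies 5 nt before 4773481 (3873 reads), and the start 4779849 (70 reads) lies 3 nt after 4779846 (1363 reads). The start 4795914 (4 reads) lies 18 nt after 4795896 (2655 reads), and the end 4774266 (2 reads) lies 30 nt before 4774296 (48605 reads). These sites were named after their counts were seen. Whether each is a splice site of its own or an alignment of reads from its neighbour was not tested, since the reads and the genome were not used here.

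Fewer members were listed in virgin libraries. Virgin libraries listed 23, 17 and 17 of the 67, laying 31, 40 and 38, caged 41, 39 and 39 and released 31, 33 and 31. With each library thinned to 1377 reads of the locus, the expected number with at least 2 reads was 20.3, 17 and 16.8 in virgin, 20.9, 20.6 and 21.1 in laying, 22.03, 21.5 and 23.4 in caged and 21.4, 20.4 and 21.1 in released libraries. Caged libraries were then above all laying and all released ones, by 1.46 and 1.36 circRNAs on average (exact two-sided permutation tests, p = 0.1 for each, the smallest possible; adjusted p = 0.5 over the 15 tests). No virgin library listed 41 of the 67 members, which held 1140 reads in the other groups. These 41 include the 25 members listed in 1 library each. The virgin libraries held only 2352, 1377 and 1507 reads of the locus, and the part of this low depth in the absence was not tested. The share of all 20244 circRNAs that no virgin library listed was not computed, so the count is description only.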

How the data were processed

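Per the labels' protocols, RNA depleted of ribosomal RNA and digested with RNase R was made into directional libraries, and the genome build was Amel_4.5. The submitters' processing notes name Bowtie, with no version (circRNA caller: not given in the sources used here). Per circRNA and library, the authors deposited a whole-number read count. Deposited columns headed TPM hold each count divided by the total of its library, so these values are CPM and carry no length term. The smallest count above 0 is 2, and no source used here says whether starts count from 0 or 1.

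The test of counts was the quasi-likelihood F test of edgeR 4.0.16 (R 4.3.3), with TMM scaling and 1 fit over the 4 groups. Of 20244 circRNAs, 3215 passed filterByExpr (min.count 5, min.total.count 15). Libraries held 66487 to 206697 circRNA reads. A call is a Benjamini-Hochberg adjusted p under 0.05 over all circRNAs, sites or loci tested. SE is the size of the log2 fold change divided by the root of the F statistic. Use was tested with edgeR diffSpliceDGE among circRNAs or sites of 1 locus, with loci built by GenomicRanges 1.54.1. Fold changes carry TMM scaling and printed CPM do not. The code was tested on simulated data, in which 200 of 3215 circRNAs were changed. The test of level recovered 66% of the 4-fold and 7% of the 2-fold changes. The test of use recovered 36% and 4%. Among circRNAs that were not changed, level gave 1 false call and use gave 11. The simulation gave all circRNAs the same spread and drew changed ones from above the lowest quartile of abundance. These rates check the code and are not the power or error of the tests on the real data.

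Named are the 10 circRNAs with the highest mean CPM, sites with at least 1% of the reads of the locus, tested circRNAs with the shared start, which is 4699241 in the table, and those called or, where none was called, the 3 with the smallest p per comparison. Members, lists and tests were chosen with earlier results of these data known. The tests of use by site and the 15 tests of single values (SciPy 1.17.1), and the share of the shared start in released against laying ovaries, were added after the data had been seen. Alternatives were DESeq2 1.42.0, other filters, other fits, a replicate block and leaving out each library. No circRNA was matched to a gene, since the gene table used here is of another assembly, and no sequence is printed.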

Additional observations from a re-analysis of the deposited data

Results flagged for a closer look

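The minus strand of the same window was not part of any comparison, and 57 of its 61 reads came from the 3 caged libraries. It listed 21 circRNAs between 4762445 and 4777730, with spans of 166 to 850 nt, of which 20 were listed in 1 library each and none held more than 8 reads. The caged libraries had 14, 15 and 28 of these reads, virgin replicates 1 and 2 had 2 each, and virgin replicate 3 and the 6 laying and released libraries were listed at 0. The caged libraries held 206697, 170382 and 176237 circRNA reads of all loci, and virgin replicate 1 held 201414. Among plus-strand members, 12 short ones shared neither site with another member. Their 32 reads fell as 10, 10 and 2 in caged, 2, 2 and 2 in laying, 2, 0 and 2 in released and 0 in each virgin library. Over the whole table, circRNAs listed in 1 library took 1.38%, 1.47% and 1.45% of the reads of the caged libraries, 1.28%, 1.32% and 1.06% in laying, 2.18%, 1.20% and 1.51% in released, and 3.06%, 2.86% and 2.85% in virgin libraries. None of these rare circRNAs could be tested, and the part of depth or of antisense reads in their listing was not tested.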

How the results depend on the processing

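Of the main results under their alternatives, 263 were rated unchanged. For counts of calls this means equal or within 1.5 times. For the locus total it means the same sign and side of the threshold, and for shares the same sign only. Another 14 counts moved further, changes from or to 0 included, and 7 values changed sign. Of the single circRNAs named, 135 kept sign and side of the threshold, 3 became calls and 1 was lost. Without the low-count filter, level calls rose to 2 circRNAs, 1 start and 1 end in caged against laying ovaries. In the whole table they rose to 32, 25 and 35, from 3, 1 and 3 in the main fit. In released against laying ovaries they rose to 1 circRNA and 1 start, with 11 and 14 in the whole table. In caged against laying, 2 starts changed in use, with 6 in the whole table. With only the groups compared in the fit, 2 circRNAs (ame_circ_0011715 and ame_circ_0011718) and 2 starts changed in use in caged against laying, and 0 of each in released against laying ovaries, where ame_circ_0011715 was not tested. Both circRNAs passed the filter there largely through their caged reads, so these calls give no support beyond their counts. Leaving out 1 library gave 0 to 1 level calls of circRNAs and of starts in released against laying ovaries. There was 1 of each without released replicate 2, with 3 and 4 in the whole table. Changes in use were 0 to 1 of each (0 without released replicate 1, with 1 of each in the whole table). The use of ame_circ_0011715 passed in 12 of 12 alternatives in caged against laying (edgeR diffSpliceDGE, adjusted p 2.58e-07 to 0.0123). It passed in 10 of 11 in released against laying ovaries (2.30e-06 to 0.0662). Each alternative reads the same counts, listed at 0 in the laying libraries, so these passes give no support beyond those counts. The log2 difference of the locus total between released and caged ovaries was -0.015 without the filter and -0.042 to 0.047 with 1 library left out, and that between released and laying was -0.304 to 0.013. The share of the shared start differed between released and caged ovaries by -1.504 to 6.53 points with 1 library left out, and between caged and laying by 0.253 to 8.28 points. The cause of these shifts was not tested. The labels do not say whether a replicate number marks shared animals. None of 18 correlations between libraries of the same number was over 0.1 (-0.11 to 0.083), and 2 of 12 libraries correlated best with their own number. With 3 libraries per group these values cannot exclude a pairing. With a replicate block 0 circRNAs were called for level and 1, 0 and 1 for use, as without it, and the test over starts gave an adjusted p of 0.0509 in caged and 0.381 in released against laying ovaries, in place of 0.0128 and 0.0367. Counts under 2 are not listed, and each group has 3 libraries.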
